A study of Mus musculus with 2 samples.

Results

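Across the mouse autosomes, 1955 intergenic windows of 500 bp carried many tags from a FLAG-cyclin D1 chromatin immunoprecipitation and few from its IgG control. They lie on a fixed grid of the NCBIM37 build. They were chosen by their counts, 12 or more anti-FLAG and 3 or fewer IgG tags, with a centre outside every annotated gene and more than 1 kb from any annotated start of transcription (TSS). They came from 2882182 intergenic windows, of which 0.0678% passed these limits. Of the 2338470 intergenic windows holding at least 1 tag of either library, 0.0836% passed. Over all 4944676 autosomal windows, genes and promoters included, the tag limits were met by 5460, or 0.11%. The same limits with the libraries swapped were met by 99 intergenic windows, or 0.00343%. Since the counts chose the windows, counts inside them are given as a description, with no test.

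The tags came from 3T3 embryonic mouse fibroblasts labelled CCND1-/-, a knockout of the cyclin D1 gene, that carry FLAG-tagged cyclin D1 from an MSCV retroviral vector. There were 2 libraries of that 1 cell population. One was precipitated with the monoclonal antibody M2 against the FLAG tag (9259840 tags) and the other with normal mouse IgG (9312346 tags). Both groups therefore share the labelled knockout and the FLAG-cyclin D1 transgene, received no treatment, and differ in antibody. The vector, not the gene's own promoter, sets the level of the tagged protein. No library from cells without the tag was used here. Neither antibody has a replicate library, so each comparison is between these libraries. All 95% intervals are exact binomial ones. They take tags, or windows in the case of shares, as independent, and hold no spread between libraries. Of the chosen windows, 21.0% lay within 10 kb of another, so intervals on shares may be too narrow. ChIP on a cell population cannot tell apart more cells with a protein at a site and more protein per cell. No expression was measured, so the labelled cell type was not checked against marker genes. In the coding exons of Ccnd1, which the vector also carries, there were 14 anti-FLAG and 7 IgG tags in 885 bp, and in the rest of the gene 45 anti-FLAG and 13 IgG tags in 9054 bp. Its introns held 15 anti-FLAG and 4 IgG tags in 6104 bp, or 2.46 and 0.655 per kb, against 3.73 per kb in the autosomal windows for each library. The labels do not say which part of the gene was deleted, and the source of the tags in its introns was not tested.

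Cyclin D1 activates the kinases CDK4 and CDK6, which phosphorylate the retinoblastoma protein in G1, and it has also been recovered from chromatin, where it has no known DNA-binding domain of its own and is taken there by other proteins. Much of the DNA that transcription factors occupy outside promoters lies in enhancers. In fibroblasts many enhancers carry the element of AP-1, the Fos and Jun family of factors that responds to serum, and the element of TEAD, the DNA-binding partners of YAP and TAZ. tRNA genes are another kind of site: RNA polymerase III transcribes them from promoter elements inside the gene, called the A box and the B box.

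The sequences that follow show what the windows hold. The first group shows the strongest windows. These are 121 bases around the median anti-FLAG tag of the 3 windows with the most anti-FLAG tags, and hold neither an AP-1 element nor a box pair. All coordinates are of build NCBIM37.
Window near Gm16372, chr12:25109985-25110105, plus strand: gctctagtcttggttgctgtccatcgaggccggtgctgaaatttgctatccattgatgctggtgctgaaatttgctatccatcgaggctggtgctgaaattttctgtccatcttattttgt
Window near Lin28a, chr4:133576657-133576777, plus strand: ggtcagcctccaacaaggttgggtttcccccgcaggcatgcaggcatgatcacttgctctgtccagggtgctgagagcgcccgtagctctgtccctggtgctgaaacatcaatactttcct
Window near Exoc6, chr19:37614835-37614955, plus strand: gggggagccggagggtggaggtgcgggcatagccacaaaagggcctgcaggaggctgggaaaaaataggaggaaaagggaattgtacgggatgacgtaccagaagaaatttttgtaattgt
The window near Gm16372 held 37 anti-FLAG and 2 IgG tags, that near Lin28a 34 anti-FLAG and 2 IgG tags, and that near Exoc6 33 anti-FLAG and 1 IgG tag. The first sequence repeats a short unit, and 44.5% of the 36-base words of its window occur once in the genome, against 100% for each of the others.

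The next group shows AP-1 elements, written TGANTCA and searched on both strands, in capitals. It gives the windows of high rank whose element with a C or G at the centre lay within 150 bp of the median anti-FLAG tag, and the windows with most tags near genes of 3 lists described later that held such an element.
Window near Gm5514 (32 anti-FLAG, 2 IgG tags), chr19:22065550-22065636, plus strand: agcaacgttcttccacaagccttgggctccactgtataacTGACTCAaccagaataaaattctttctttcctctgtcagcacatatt
Window on chromosome 3 near a 7SK gene (29 anti-FLAG, 3 IgG tags), chr3:83250136-83250222, plus strand: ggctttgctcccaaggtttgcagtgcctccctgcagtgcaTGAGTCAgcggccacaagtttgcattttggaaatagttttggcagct
Window near Aim1 (29 anti-FLAG, 3 IgG tags), chr10:43799137-43799223, plus strand: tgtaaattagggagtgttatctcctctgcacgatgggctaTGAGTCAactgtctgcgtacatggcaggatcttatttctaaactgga
Window near Dusp4 (16 anti-FLAG, 2 IgG tags), chr8:35636098-35636184, plus strand: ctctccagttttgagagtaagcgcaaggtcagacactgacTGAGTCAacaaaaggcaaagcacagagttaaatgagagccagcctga
Window near Dusp5 (16 anti-FLAG, 1 IgG tag), chr19:53627427-53627513, plus strand: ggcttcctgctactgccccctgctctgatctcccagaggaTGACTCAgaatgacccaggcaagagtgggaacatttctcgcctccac
Window near Igfbp3 (14 anti-FLAG, 2 IgG tags), chr11:7137804-7137890, plus strand: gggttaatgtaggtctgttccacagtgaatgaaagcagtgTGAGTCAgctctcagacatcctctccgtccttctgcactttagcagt
Window near Col6a2 (24 anti-FLAG, 2 IgG tags), chr10:76131733-76131819, plus strand: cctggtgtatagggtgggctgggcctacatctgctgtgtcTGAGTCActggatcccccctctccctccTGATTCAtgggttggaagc
The elements nearest to the tags lay from 13 bp (near Aim1) to 131 bp (near Dusp5) from the median anti-FLAG tag. The one near Col6a2 has another element, with a T at the centre, in the same 87 bases.

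The last group shows pairs of an A box and a B box, both in capitals, on 1 strand with 38 to 75 bp from start to start, as in tRNA genes. A pair with CG in the B box was in 2 of the 12 strongest windows, of which 1 is shown, with another 2 such windows of high anti-FLAG count and the window near Aurkb, the gene of a mitotic kinase.
Window on chromosome 8 near a 7SK gene and Pllp (31 anti-FLAG, 0 IgG tags), chr8:97227526-97227617, plus strand: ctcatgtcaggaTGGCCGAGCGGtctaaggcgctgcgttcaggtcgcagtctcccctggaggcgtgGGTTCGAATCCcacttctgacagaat
Window near Gm11708 (29 anti-FLAG, 3 IgG tags), chr11:106874175-106874256, plus strand: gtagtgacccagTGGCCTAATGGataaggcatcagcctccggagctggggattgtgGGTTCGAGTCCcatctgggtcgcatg
Window near C920011F04Rik (23 anti-FLAG, 2 IgG tags), chr11:115274290-115274371, plus strand: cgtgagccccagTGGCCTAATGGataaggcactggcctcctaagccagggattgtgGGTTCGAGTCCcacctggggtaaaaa
Window near Aurkb (12 anti-FLAG, 0 IgG tags), chr11:68853882-68853962, plus strand: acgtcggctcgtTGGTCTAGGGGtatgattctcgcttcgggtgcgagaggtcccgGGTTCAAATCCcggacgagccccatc
The boxes were 54, 44, 44 and 43 bp apart from start to start, in the order shown. The annotation used lists 0 tRNA genes outside the mitochondrion, so a window on such a gene counts as intergenic under the rule. No tRNA name is given to them here.

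Most of the windows were near the lower limit. They held a median of 14 anti-FLAG tags (12 to 37) and a median of 2 IgG tags (0 to 3), which sum to 28648 anti-FLAG and 3998 IgG tags. IgG tags numbered 0 in 151 windows, 1 in 374, 2 in 666 and 3 in 764. Just inside the anti-FLAG limit were 597 windows with 12 tags, and just outside it 967 with 11 tags. On the IgG side, 764 windows of 12 or more anti-FLAG tags had 3 IgG tags and 774 had 4. At 20 or more tags the contrast between the libraries was plainer, with 165 windows for anti-FLAG excess and 0 for IgG excess. Intergenic windows with 12 or more tags of 1 library, whatever the other held, numbered 4902 for anti-FLAG and 500 for IgG.

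**Figure D1:**
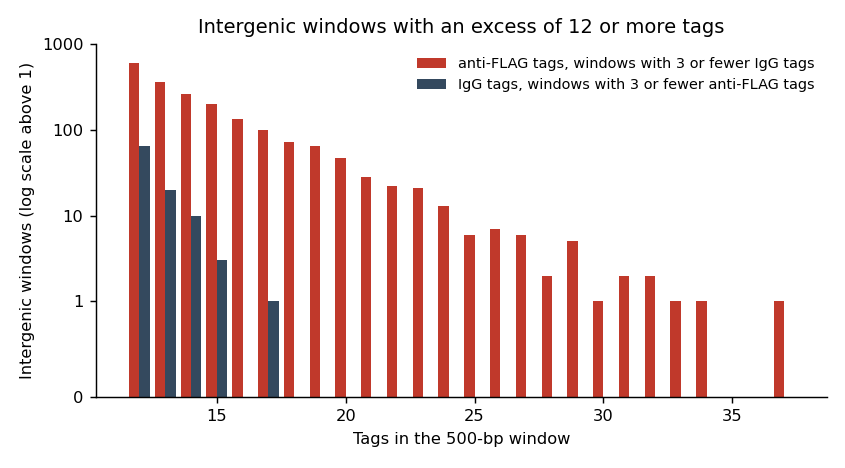
Number of intergenic windows (log scale above 1) by the tags they hold, for anti-FLAG tags in windows with 3 or fewer IgG tags and for IgG tags in windows with 3 or fewer anti-FLAG tags. The anti-FLAG series runs from 597 windows at 12 tags to 1 window at 37 tags, while the IgG series ends at 17 tags.

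The IgG limit leaves out some windows of strong anti-FLAG recovery. A window of 66 anti-FLAG and 11 IgG tags 22542 bp from the TSS of Kcnk9, a potassium channel gene, was left out for its IgG tags. Of 2947 intergenic windows with 12 or more anti-FLAG and over 3 IgG tags, 123 were at least 4-fold higher in anti-FLAG with 1 tag added to each count. Of the 1955 chosen windows, 1487 were, a contrast that the IgG limit itself largely sets.

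Anti-FLAG tags of the chosen windows were offset by strand, as fragments read from both ends around a site are. Within 400 bp of the window centre, 5′ ends on the minus strand lay 66.9 bp downstream of those on the plus strand on average, and 95.8% of the windows had at least 25% of their anti-FLAG tags on each strand. IgG tags in the same windows were offset the other way, by -62.0 bp. In the 99 windows with IgG excess the same held with the libraries exchanged, at -45.9 bp for anti-FLAG and 85.2 bp for IgG tags. The move of tags by 72 bp that the selection used can itself set such an offset. With windows chosen from tags that were not moved, the offset was 44.8 bp for anti-FLAG tags and -14.1 bp for IgG tags in 1890 anti-FLAG excess windows. In 78 IgG excess windows chosen in the same way it was -18.6 bp for anti-FLAG tags and 16.9 bp for IgG tags.

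Beyond the windows, which the limits did not count, anti-FLAG tags stayed more frequent than IgG tags. From 500 to 2000 bp past the edges of the windows there were 41587 anti-FLAG and 33592 IgG tags, a ratio of 1.24 (95% interval 1.22 to 1.26) scaled to autosomal totals, by the 2-sided exact conditional binomial test p = 4.68e-188. Over the same distances from the IgG excess windows there were 2238 anti-FLAG and 2092 IgG tags, a ratio of 1.07 (1.01 to 1.14), exact p = 0.0255. All intergenic windows holding a tag gave 0.956. These values moved with base composition: intergenic DNA of the same GC gave 1.07 for the flanks of the chosen windows and 0.954 for those of the IgG excess windows. Divided by these, the flanks gave 1.16 for the chosen windows and 1.12 for the IgG excess windows. Within 500 bp of the edge they were further apart, at 1.37 for the chosen windows and 1.11 for the IgG excess windows. From 5000 to 10000 bp the chosen windows still gave 1.09 and the IgG excess windows 1.07. The flanks include windows within genes and near a TSS, while the values at the same GC come from intergenic windows alone. The part of genes in the flank ratios and the difference between the sets were not tested.

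**Figure D2:**
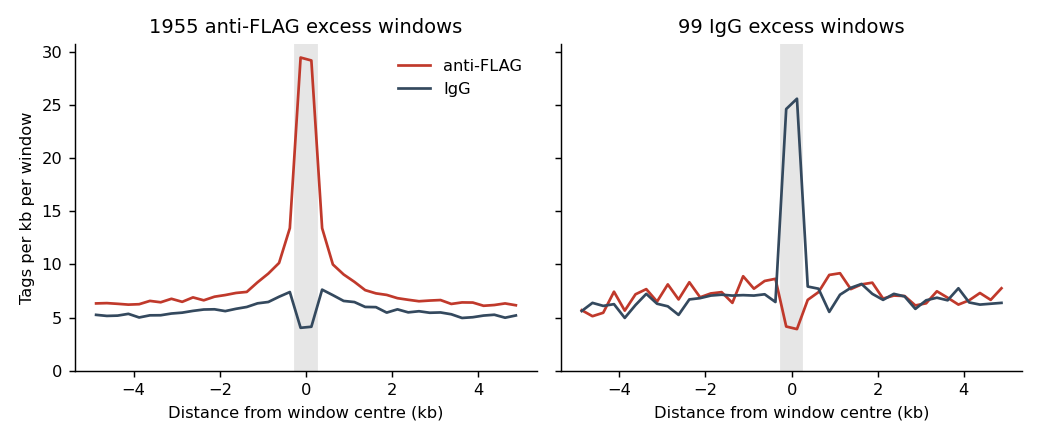
Tags per kb per window, in bins along the distance from the window centre in kb, for anti-FLAG and IgG tags around the 1955 anti-FLAG excess windows (left) and the 99 IgG excess windows (right), with the windows shaded. The peak and dip inside the shaded part are set by the limits, while outside it the anti-FLAG line stays above the IgG line on the left and the lines cross on the right.

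IgG tags were also more frequent near the chosen windows than elsewhere. From 500 to 2000 bp away a window of 500 bp, within a gene or not, held 3.01 IgG tags on average. All intergenic windows holding a tag averaged 2.02 IgG tags. The share of windows that were chosen followed the local level of the control: it was 0.0201% in the lowest of 4 classes of intergenic windows, ranked by the IgG level of their megabase, and 0.176% in the highest. IgG excess windows followed it too, with 3 in the lowest class and 72 in the highest. By chromosome, the chosen windows ranged from 4.29 per 10000 intergenic windows holding a tag on chromosome 4 to 18.9 per 10000 on chromosome 19, where the mean was also the highest for both libraries, at 2.76 anti-FLAG and 2.77 IgG tags per window. The part of the local tag level in these shares was not tested.

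The chosen windows were richer in G and C than most intergenic DNA. Their median GC was 46.4% (quartiles 42.8 to 50.4), against 40.8% (36.4 to 45.2) in all intergenic windows holding a tag and 37.6% in the IgG excess windows. Windows within genes that met the same limits had a median of 46.6%, and those within 1 kb of a TSS 55.4%. The anti-FLAG to IgG ratio of intergenic windows rose in step with GC, and was 0.722 at 30 to 32% and 2.07 at 58 to 60%. The share that was chosen was 0.00557% in the first of these strata and 0.658% in the second. Dividing each window's ratio by that of its stratum moved the median log2 ratio, with 1 tag added to each count, to 2.12, against 2.25 uncorrected. Windows above 60% GC took the ratio of the 58 to 60% stratum. After this, 1941 of the 1955 windows remained at least 2-fold. The limits largely set that count, since they hold the uncorrected log2 ratio at 1.70 or more.

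CpG-rich windows were a small part. By a rule of GC over 50% and an observed to expected CpG ratio over 0.6, 76 windows (3.89%) were CpG island-like, against 0.131% of intergenic windows holding a tag and 58.4% of the windows chosen by the same limits within 1 kb of a TSS. Of these 76, 69.7% held a GC box, the Sp1 element GGGCGG, 17.1% held an A and B box pair and 11.8% an AP-1 element. Their median log2 ratio was 2.64, and 1.85 after the correction for GC.

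The windows lay closer to genes than intergenic DNA in general, and still mostly far from promoters. The median distance to the nearest TSS was 23.5 kb (quartiles 8.46 to 58.5), against 52.8 kb for intergenic windows holding a tag and 35.6 kb for the same windows weighted to the GC of the chosen ones. The IgG excess windows lay at 40.6 kb. Of the chosen windows, 15.1% were 1 to 5 kb from a TSS, against 10.6% of intergenic windows at the same GC, while 4.25% were over 200 kb away, against 10.8%. For protein-coding genes alone the median was 37.8 kb for chosen windows, against 61.8 kb at the same GC. On this scale 66.2% lay upstream of the nearest protein-coding gene, against 62.5% of intergenic windows at the same GC.

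**Figure D3:**
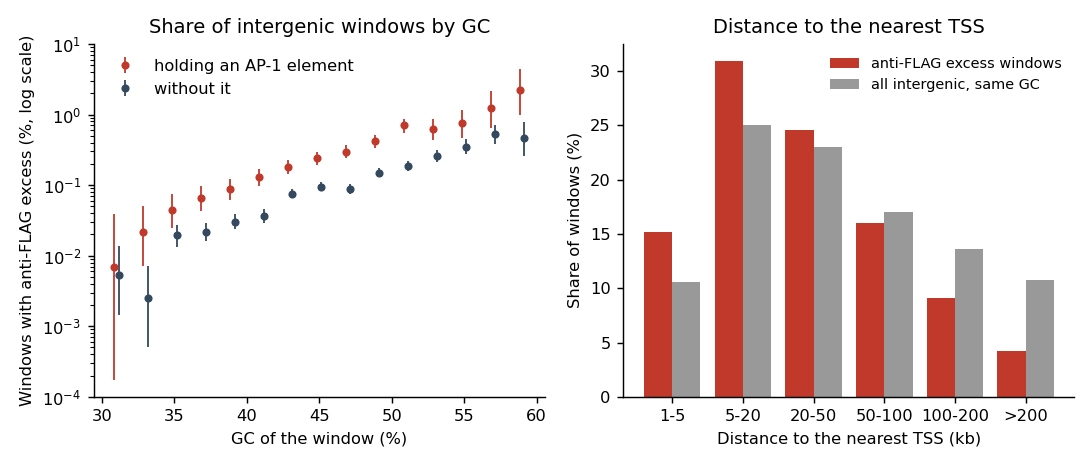
Left, percentage of intergenic windows that had anti-FLAG excess (log scale) by the GC percentage of the window, separately for windows holding an AP-1 element and windows without one, with exact 95% intervals. Right, percentage of the anti-FLAG excess windows and of all intergenic windows weighted to the same GC by distance in kb to the nearest TSS; the excess windows are the more frequent up to 50 kb and the less frequent beyond it.

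Protein-coding genes were the nearest gene for 62.5% of the windows, against 57.0% of intergenic windows at the same GC. Small nuclear RNA genes were the nearest for 5.42%, against 7.49%, small nucleolar RNA genes for 4.09%, against 6.78%, pseudogenes for 7.21%, against 10.3%, and lincRNA genes for 4.35%, against 3.09%. The windows were spread over many genes, 1377 nearest genes of any type and 1404 nearest protein-coding genes, of which 74.1% had a single window. They were also short and separate: 1813 of 1882 runs of adjacent windows were 1 window long, and the longest run was 3 windows.

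Of the 16 elements searched at first, and among those present in over 1% of the windows, AP-1 had the largest ratio of its share to that in intergenic DNA of the same GC. It was found in 639 windows, 32.7% (30.6 to 34.8), against 14.5% of intergenic windows at the same GC and 14.6% at the same GC and local IgG level. In the 99 IgG excess windows it was in 24.2% (16.2 to 33.9), also above intergenic DNA and with an interval that overlaps that of the chosen windows. Splitting it by the central base, a step added after the values were seen, the form with C or G at the centre, which Fos and Jun dimers are known to prefer, was in 24.9% of chosen windows, against 8.88% at the same GC. The form with A or T was in 11.05%, against 6.19%. In the IgG excess windows the order was the other way round, with C or G in 9.09% (4.24 to 16.6) and A or T in 15.2% (8.74 to 23.8). Those windows had a lower median GC, 37.6% against 46.4%, and their shares were not weighted for it. The part of GC in this order was not tested. Chosen windows with 2 or more AP-1 elements made up 6.85%, against 1.41% of intergenic windows holding a tag.

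The AP-1 share, as a point estimate, was higher where there were more anti-FLAG tags. It was 29.5% (25.8 to 33.3) in windows of 12 tags, 31.2% at 13 or 14 tags, 35.7% at 15 to 19 tags, 38.2% at 20 to 24 tags and 44.1% (27.2 to 62.1) in the 34 windows of 25 or more. The intervals of neighbouring classes overlapped. The form with C or G was in 21.9% at 12 tags, 30.5% at 20 to 24 tags and 29.4% (15.1 to 47.5) at 25 or more. The form with A or T was in 9.88%, 15.3% and 17.6% (6.76 to 34.5) of the same classes. In all 15 strata of GC from 30 to 60% the share chosen was higher in windows holding AP-1 of either form than in those without it. The intervals did not overlap in 11 strata. At 50 to 52% GC, for example, the share was 0.701% (0.556 to 0.872) with AP-1 and 0.188% (0.157 to 0.222) without.

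The element was also placed near the tags. Within 100 bp of the median anti-FLAG tag, AP-1 elements with C or G at the centre numbered 0.936 per kb, against 0.212 per kb from 500 to 1000 bp away in the same DNA, a ratio of 4.42. The form with A or T gave 0.302 per kb near the tags and 0.138 per kb away, a ratio of 2.19. TEAD elements, written GGAATG, gave 1.29 per kb near and 0.603 per kb away, a ratio of 2.13. For the element of GATA factors, AGATAA, the ratio was 1.35, and for that of RUNX factors, TGTGGT, it was 1.25. Both of these, and the E-box CACGTG with a ratio of 1.03 and the CCAAT box with 0.902, were flatter than AP-1 and TEAD. The GC box had a ratio of 1.66 and the CArG box, also among the elements searched, 1.40, both above GATA and RUNX. These densities are not weighted for base composition, and its part in them was not tested.

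**Figure D4:**
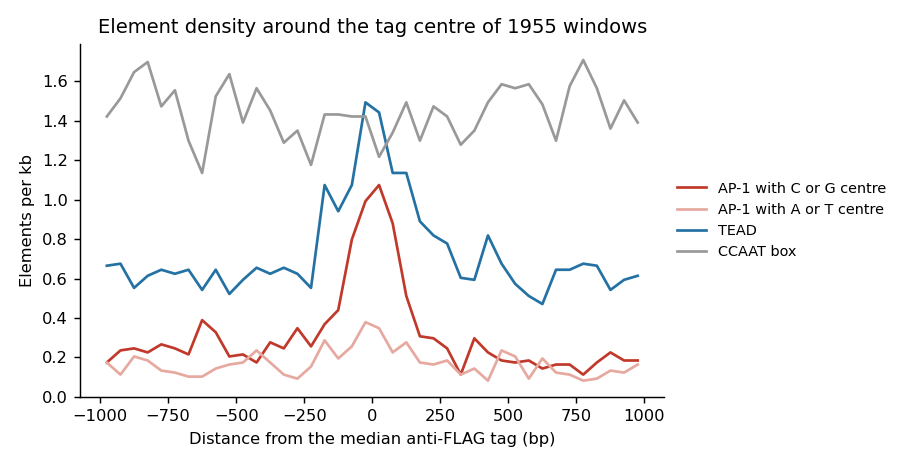
Elements per kb in bins along the distance in bp from the median anti-FLAG tag of each of the 1955 windows, for AP-1 with C or G at the centre, AP-1 with A or T, TEAD and the CCAAT box. The lines of both AP-1 forms and of TEAD are highest at the centre, while the CCAAT line has no peak there.

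TEAD elements were in 35.9% (33.8 to 38.1) of the windows, against 27.4% of intergenic windows at the same GC. They were in 27.3% (18.8 to 37.1) of the IgG excess windows. They were in 39.1% of the chosen windows with AP-1 and in 34.3% of those without. GATA elements were in 30.4%, against 23.6%, and RUNX elements in 36.5%, against 32.8%. Both were as frequent or more so in the IgG excess windows, GATA in 39.4% (29.7 to 49.7) and RUNX in 38.4% (28.8 to 48.7). Shares of the IgG excess windows were not weighted for their lower GC, and its part was not tested. GATA was in 31.8% of all intergenic windows holding a tag. GC boxes were in 13.9%, against 7.87%, though far below the 53.7% of the windows chosen near a TSS. The CCAAT box was rarer than in intergenic DNA, in 47.7% against 54.6%. The E-box was in 6.70% (5.63 to 7.90) and the p53 decamer in 17.3% (15.6 to 19.04), with 6.01% and 16.6% at the same GC, both inside the interval. CRE elements (TGACGTCA) were in 11 windows, C/EBP elements (TTGCGCAA) in 6, ETS elements (CCGGAAGT) in 14, the E2F element TTTCCCGC in 10 and its other form TTTGGCGC in 4, too few for a comparison. The full NF1 palindrome and the CTCF core were in 0 windows, which with 1955 windows allows a share of up to 0.189% for each by the exact interval. Matches to letters were counted, and no factor was measured at any of them.

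Windows within genes that met the same limits held AP-1 in 29.5%, TEAD in 38.02% and GATA in 29.6% of 2078 windows. Within 1 kb of a TSS, AP-1 was in 11.98% and GATA in 13.2% of 1427 windows, of which 0.911% held an A and B box pair. The limits were met by 0.107% of windows within genes and by 1.12% of windows within 1 kb of a TSS.

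**Figure D5:**
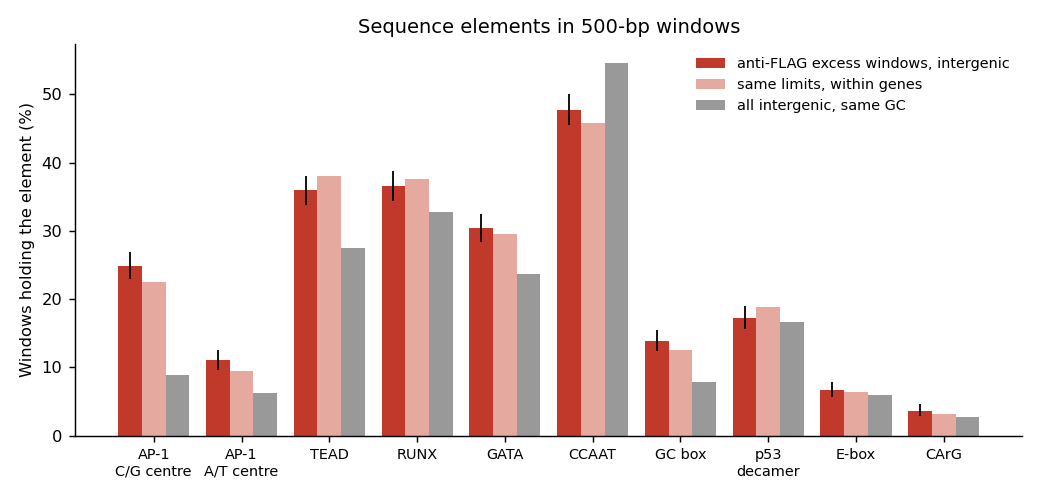
Percentage of 500-bp windows holding each element, for the intergenic anti-FLAG excess windows (with exact 95% intervals), windows within genes that met the same limits, and all intergenic windows weighted to the same GC. AP-1 with C or G at the centre shows the widest gap, 24.9% against 8.88%, and the CCAAT box is the one shown that is lower in the excess windows than in intergenic DNA.

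A smaller group held the paired boxes of tRNA genes, a feature searched for after the strongest sequences had been seen. The pair was in 38 windows, 1.94% (1.38 to 2.66), against 0.170% of intergenic windows at the same GC, and in 0 of the 99 IgG excess windows. With CG in the B box it was in 24 windows, 1.23% (0.788 to 1.82), against 0.0299%. Seen from the other side, 417 intergenic windows holding a tag had the CG form, and 5.76% (3.72 to 8.44) of these were chosen. Of windows with any pair, 1.23% were chosen. The other 393 windows of the CG form held 1726 anti-FLAG and 1034 IgG tags, a ratio of 1.67, against 1.06 at the same GC. Their medians were equal, at 2 tags in each library, and 64 of them had 8 or more anti-FLAG tags. More anti-FLAG than IgG tags were in 203 of them and fewer in 122. Of the 36-base words of the 38 windows with any pair, 77.4 to 100% occurred once in the genome.

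The 38 windows held a median of 15.5 anti-FLAG tags (12 to 31) and 2 IgG tags (0 to 3). They lay on 14 chromosomes, and 18 had another within 1 Mb. On chromosome 1, 5 lay between 172967001 and 173042000, near a U1 gene and 1700009P17Rik. On chromosome 13, 6 lay between 21259501 and 23593000, with nearest genes that included Trim27, Gpx5 and Btn2a2. In these 38 windows 3 held an AP-1 element, and 27 had an observed to expected CpG ratio over 0.6.

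Among the strongest runs, named for their anti-FLAG tags, distances to genes ranged widely. The window near Gm16372 (chr12:25110001-25110500) lay 68270 bp downstream of its TSS, had 18.5 times the IgG count and continued into a neighbouring window of 16 anti-FLAG and 1 IgG tags. The window near Lin28a, which encodes an RNA-binding protein of early development that blocks let-7 maturation, lay 1994 bp upstream of the TSS. The ratio of this window was 17.0 (4.36 to 146). The windows on either side of it held 3 anti-FLAG tags each and 5 and 2 IgG tags, so the excess was confined to 1 window of these 3. The window near Exoc6, a subunit of the exocyst, lay 10157 bp upstream with a ratio of 33.02 (5.53 to 1343), which rests on 1 IgG tag.

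The window near Fth1, the ferritin heavy chain gene, lay 27942 bp upstream of the TSS (chr19:10029001-10029500) and held 32 anti-FLAG and 2 IgG tags, with 1 AP-1 element and 1 GC box. The window near the pseudogene Gm5514, which is 147858 bp from Trpm3, a cation channel gene, also held 32 anti-FLAG and 2 IgG tags. The window near 7SK and 7608 bp upstream of Pllp held 31 anti-FLAG and 0 IgG tags. With its IgG count set to a floor of 3 counts, the ratio was 10.3 (3.22 to 52.8). Of the 12 strongest windows, the one near 7SK and Pllp was the only one with 0 IgG tags.

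Windows far from coding genes were also among the strongest. The one near Gm9946 held 30 anti-FLAG and 3 IgG tags and lay 221240 bp from the nearest protein-coding gene. The one near Gm13589, with 29 anti-FLAG and 2 IgG tags, lay 78949 bp from the TSS of Lhx2, a LIM-homeodomain factor, and had 1 and 0 anti-FLAG tags in the windows on its sides. On chromosome 3 the window near a 7SK gene held 29 anti-FLAG and 3 IgG tags, with 12 and 18 anti-FLAG tags beside it, and was over 300 kb from a coding gene. The window near Aim1 (29 anti-FLAG, 3 IgG tags) was 74598 bp upstream and held 2 AP-1 elements. The window near Pisd-ps1, also with 29 anti-FLAG and 3 IgG tags, had 60.6% of its words once in the genome, and its megabase averaged 8.70 anti-FLAG and 7.93 IgG tags per window. Over all chosen windows, 98.0% had at least 80% of their 36-base words once, against 83.9% of a systematic sample of 4677 intergenic windows.

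Some genes had several windows around them. Cited2, a CBP/p300-binding coactivator, and Zfp36l1, an RNA-binding protein that promotes decay of AU-rich mRNAs, were the nearest protein-coding genes of 8 windows each. For Cited2 these came from 2827 intergenic windows and for Zfp36l1 from 681, so 0.283% and 1.17% of them were chosen. The 8 windows of Zfp36l1 held 123 anti-FLAG and 19 IgG tags, 126249 to 256249 bp away. Gm6772 had 5 of 97 windows (5.15%), with 83 anti-FLAG and 4 IgG tags. Near Myc, the growth-promoting transcription factor, there were 5, with 81 anti-FLAG and 15 IgG tags, and near Col1a2, a chain of type I collagen, 5 with 69 anti-FLAG and 10 IgG tags. AP-1 was in 2 of the 8 windows of Cited2, 1 of the 8 of Zfp36l1, 3 of the 5 of Gm6772, 4 of the 5 of Myc and 3 of the 5 of Col1a2.

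Joining windows within 10 kb gave 1733 loci, of which 4 held 4 windows. One lay beside 9330160F10Rik and Tmem107, with 65 anti-FLAG and 8 IgG tags, and included 2 of the windows with a box pair. The others lay near C130026L21Rik (61 anti-FLAG, 9 IgG tags), Ryk, a Wnt receptor (57 anti-FLAG, 10 IgG tags), and Tacc1, a centrosomal coiled-coil protein (52 anti-FLAG, 6 IgG tags). A locus of 3 windows followed Mir21, a microRNA gene induced in many growing cells, which was named here after its values were seen. Its windows lay 1909, 11909 and 15409 bp downstream of the Mir21 start and held 20, 17 and 20 anti-FLAG and 2, 1 and 3 IgG tags.

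The windows were then read by 6 gene lists, counting a window for a list where a list gene had the nearest TSS. AP-1 and immediate early genes, which respond to serum within minutes, were nearest to 25 windows, 1.28% (0.829 to 1.88), against 0.275% of intergenic windows at the same GC and 0.491% at the same GC and local IgG level. They belonged to 12 of 32 genes, in a list chosen with earlier results of these data known. Of all 37310 annotated genes, 1377 were the nearest to a chosen window. Of the 22380 protein-coding genes, 1404 were the nearest protein-coding gene to one. Both totals include genes outside the autosomes, while all 32 list genes are on autosomes. Trib1, a pseudokinase gene, had 4 windows, the strongest of 26 anti-FLAG and 2 IgG tags, 68845 bp downstream of its TSS. Fos had 4 of its 216 intergenic windows, with 15, 12, 12 and 15 anti-FLAG and 2, 1, 3 and 1 IgG tags: they lay 26089, 18089 and 49089 bp upstream and 23910 bp downstream of the TSS. AP-1 was in 0 of these 4.

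The windows nearest to a TSS in that list belonged to Fosl2 and Fosl1, which encode Fos family members, Myc, and Dusp6, a phosphatase that turns off ERK. Fosl2 had 12 anti-FLAG and 1 IgG tags 1094 bp upstream, Fosl1 12 anti-FLAG and 2 IgG tags 2452 bp upstream, Myc 15 anti-FLAG and 3 IgG tags 2195 bp upstream and Dusp6 14 anti-FLAG and 2 IgG tags 2614 bp upstream. All 4 were close to the limits. The other dual-specificity phosphatase genes, Dusp4 with 3 windows and Dusp5 with 1, carried the AP-1 sequences printed above. Of the 25 windows, 10 held an AP-1 element.

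Targets of YAP and TEAD were nearest to 9 windows, 0.460% (0.211 to 0.872), against 0.140% at the same GC and 0.170% at the same GC and local IgG level, for 7 of 24 genes. Ankrd1, a muscle and stretch-responsive repeat protein gene, had 15 anti-FLAG and 0 IgG tags in a window 9416 bp upstream, which held a TEAD element. Lats2, the Hippo kinase that restrains YAP, had 13 anti-FLAG and 3 IgG tags 2025 bp upstream in a window of 2 TEAD elements. Crim1 and Dock5 had 12 anti-FLAG and 2 IgG tags each, 2837 and 7621 bp upstream, without a TEAD element. Of the 9 windows, 4 held one.

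Fibroblast matrix genes were nearest to 17 windows, 0.870% (0.507 to 1.39), against 0.188% at the same GC and 0.264% at the same GC and local IgG level, for 11 of 33 genes, 31 of them on autosomes. Timp2, an inhibitor of matrix metalloproteinases, had windows of 16 anti-FLAG and 2 IgG tags 5696 bp upstream and of 12 anti-FLAG and 1 IgG tags 7696 bp upstream. Col1a2 had 13 anti-FLAG and 0 IgG tags 14563 bp upstream and 17 anti-FLAG and 3 IgG tags 16063 bp upstream. Chains of other fibrillar and beaded collagens were further off: Col3a1 had 22 anti-FLAG and 3 IgG tags 118132 bp upstream, and Col6a2 24 anti-FLAG and 2 IgG tags 45375 bp upstream in the window with a pair of AP-1 elements shown above.

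The other lists held few windows. Actin cytoskeleton and adhesion genes had 5, 0.256% (0.0831 to 0.596), against 0.0813% at the same GC and local IgG level. Vcl, which links integrins to actin, had 20 anti-FLAG and 3 IgG tags 14904 bp upstream and Myh10, a non-muscle myosin, 16 anti-FLAG and 2 IgG tags 34310 bp upstream. Zyx and Acta2 had 12 anti-FLAG and 3 IgG tags each, 1076 and 13924 bp upstream. Cell cycle genes, the group in which cyclin D1 acts, had 3 windows, 0.153% (0.0317 to 0.448), an interval that holds the 0.107% at the same GC. They lay near Aurkb, Cdkn1b, a CDK inhibitor (13 anti-FLAG and 1 IgG tags 8331 bp downstream), and E2f2, a target of the retinoblastoma protein (14 anti-FLAG and 3 IgG tags 12058 bp upstream), and the first of these is the box pair window. TGF-beta and SMAD genes also had 3 windows, against 0.201% at the same GC: Id2 had 15 anti-FLAG and 1 IgG tags 3706 bp downstream and 13 anti-FLAG and 1 IgG tags 3793 bp upstream, and Smad6 had 12 anti-FLAG and 1 IgG tags 112115 bp downstream.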

How the data were processed

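Chromatin was fixed in 1% formaldehyde for 15 min and sheared to an average of 300 to 500 bp, per the labels' protocols. The deposited files list tag positions, start, end and strand of each mapped tag; the deposited score is the constant 512 and was not used. Aligner, filters and build were not given in the sources used here. All tags were 36 bp long, 0 shared position and strand within a library, and 4 anti-FLAG and 2 IgG tags passed the chromosome ends of NCBIM37, whose sequence and GENCODE M1 annotation (37310 genes, 22380 protein-coding) were used. Tags were placed at the 5′ end moved 72 bp downstream and counted in 500-bp windows of 19 autosomes, which held 8920625 anti-FLAG and 8924859 IgG tags. The nearest gene has the nearest TSS, taken from gene records. GC-weighted shares use intergenic windows holding a tag, in strata of 2 GC points. Local level is 1 of 4 classes of the IgG tags per window of the megabase. Log2 ratios add 1 tag to each count.

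Members, gene lists and elements were chosen with earlier results of these data known. Named are the 12 runs with most anti-FLAG tags, and per list up to 4 windows nearest to a list gene's TSS (1 of the 12 is not reported here); Trib1, Fos, Mir21, Col3a1, Col6a2, Kcnk9 and the genes with most windows were added after values were seen. Elements were counted on both strands, and the counting was tested on simulated data, where 200 of 200 planted windows were recovered. The flank test uses windows outside the selected ones, within genes or not, and treats tags as independent. Python 3.11.15, NumPy 2.4.6, SciPy 1.17.1, Numba 0.67.0 and Matplotlib 3.10.9 were used.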

Additional observations from a re-analysis of the deposited data

Results flagged for a closer look

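Chromosome X was outside the selection, which took autosomes. Under the same limits it held 15 intergenic windows with anti-FLAG excess and 0 with IgG excess, of 225656 intergenic windows. The share with anti-FLAG excess was smaller than on the autosomes, where 1955 of 2882182 intergenic windows (0.0678%) passed. Chromosome X is listed because its windows are data that the comparisons do not use. The 15 windows had a median of 13 anti-FLAG tags and 2 IgG tags and a median GC of 44.6%, and 3 held an AP-1 element.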

How the results depend on the processing

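Of 45 alternatives over 8 results, 37 were classed as the same and 0 as reversed. For counts and the strand offset this class allowed a move within a set fold, and for the flank ratio it asked only for the same direction and a small p. For the other results the value had to stay inside the main interval. The flank ratio thus went from 1.16, divided by the ratio at the same GC, to 1.35, scaled to 10-kb bins. Both are outside its interval of 1.22 to 1.26. The number of windows was 4452 with 10 or more anti-FLAG tags and 441 with 15 or more and 2 or fewer IgG tags, where the swapped limits gave 2 and the median GC was 48.0%. The median distance was 37.8 kb to protein-coding TSSs. The AP-1 share was 16.6% in the central 200 bp, 24.9% for the C or G centre and 11.05% for the A or T centre; the last 2, with the GC-weighted distance and flank ratio, the share at the local IgG level, the box pair and the offset with unmoved tags, were added after the data were seen. The repeat filter was not run, since the reference is not soft-masked. At this depth most windows rest on 12 to 15 anti-FLAG tags (1420 of 1955). No paired analysis was possible because there is 1 library per antibody.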
